A study of Mus musculus with 12 samples.

Results

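The 35 genes described here carry the unfolded protein response of the endoplasmic reticulum (ER) and the amino acid stress response, measured by RNA sequencing in mouse splenic dendritic cells (DCs). They were taken by gene symbol from the 57009 Ensembl identifiers of the count table, and all 35 had enough counts to be tested among 14413 genes. Of these, 16 belong to the XBP1/ATF6 branch (sensors, folding factors, and components of ER-associated degradation) and 19 to the ATF4 branch (transcription factors, feedback regulators, enzymes of amino acid and one-carbon synthesis, and aminoacyl-tRNA synthetases). The question addressed is whether either branch differed between DCs that met alloantigen-specific memory T cells and DCs that did not.

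All DCs came from C57BL/6 (B6) mice carrying a B16 melanoma engineered to release Flt3 ligand (which increases DC numbers), so the cells of every group had developed under that factor in a tumour-bearing host. Spleens were depleted of T, B and NK cells and macrophages with beads, and the DCs were cultured for 3 h. They were kept alone (DC only), with lipopolysaccharide, a bacterial cell wall component (LPS), with syngeneic B6 memory T cells (SynTem), or with memory T cells specific for alloantigen and derived from BALB/c (AlloTem), and were then sorted on CD11b and CD11c. Each group had 3 libraries. The deposited batch number (1, 2 or 3) matched the replicate number for 12 of 12 libraries. Nothing in the labels ties a replicate to an animal or a culture of its own, and the p-values therefore cover only the spread of these libraries, part of which may be technical.

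As background, unfolded proteins in the ER activate 3 sensors. IRE1 (Ern1) splices Xbp1 mRNA so that it encodes an active transcription factor, and ATF6 is cleaved to release another; their targets fold proteins in the ER and remove those that stay misfolded. PERK (Eif2ak3) phosphorylates the translation factor eIF2, as other kinases do when amino acids are scarce, and this favours translation of ATF4, which drives genes of amino acid supply, tRNA charging and feedback on the response. XBP1 is known for its part in the development and survival of DCs. The gene counts used here do not separate spliced from unspliced Xbp1 mRNA, and ATF4 and ATF6 protein activity were not measured.

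Total counts ran from 13903574 to 21861156 per library. The defining DC markers were present in all 12 libraries (Itgax 261 to 470 CPM, counts scaled to a common library total, and Flt3 316 to 461 CPM). The summed level of 14 T cell genes was 34.3 to 53.8 CPM in DC only, 37.2 to 82.7 in LPS, 181 to 483 in SynTem and 90.8 to 169 in AlloTem. Libraries DC only 1 and 2 were more alike than any other pair of replicates, with a chi-square of 6.14 per degree of freedom over genes, against 26.4 to 80.7 for the other pairs. Transcripts of the Y chromosome summed to 131 to 220 CPM in the third library of every group and in SynTem 2, and to at most 10.3 CPM elsewhere.

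Promoter windows are shown because the factors of the branches are known to bind different elements. The branch of a gene was not set by these matches. RefSeq windows (GRCm38.p6, 250 bases before to 50 bases after the gene start) were used for 31 of the 35 genes. They were searched on both strands for the ER stress response element (ERSE, bound by ATF6 and XBP1), the shorter ERSE-II, the core TGACGTGG, also bound by these factors, and the element of ATF4 with its C/EBP partners (CARE, TGATGNAA). ERSE, ERSE-II and the TGACGTGG core share 5 letters on one strand or the other, and none of the 4 motifs contains another. ERSE was present in 6 of 14 XBP1/ATF6 genes, in 0 of 17 ATF4 genes and in 0.119% of all 32851 windows. The matches are printed 5′ to 3′ in the sense of the motif, with its fixed letters in capitals, any base between them in lower case and 4 flanking bases on each side.
Pdia6, chr12:17266487-17266513, plus strand: gagaCCAATgaaaggcggCCACGgcgt
Calr, chr8:84847071-84847097, plus strand: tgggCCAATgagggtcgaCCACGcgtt
Canx, chr11:50325796-50325822, minus strand: ttgaCCAATcaccacgctCCACGaaga
Creld2, chr15:88819516-88819542, minus strand: tggaCCAATtgaggctcgCCACGagaa
Syvn1, chr19:6046528-6046554, plus strand: gcaaCCAATcggcggtagCCACGggaa
Derl3, chr10:75893238-75893264, minus strand: ctagCCAATggggaagtcCCACGgtag

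CARE was present in 5 of 17 ATF4 genes and in 1 of 14 XBP1/ATF6 genes (Herpud1), against 3.97% of all windows. The matches are printed in the same way.
Trib3, chr2:152344035-152344050, plus strand: cggcTGATGtAAacct
Chac1, chr2:119351045-119351060, minus strand: ggagTGATGcAAcggc
Asns, chr6:7693221-7693236, minus strand: cacaTGATGaAActtc
Aars, chr8:111033726-111033741, minus strand: cggcTGATGcAAtgct
Aars, chr8:111033847-111033862, minus strand: gctcTGATGaAAagtg
Gars, chr6:55037967-55037982, minus strand: tgcaTGATGaAAtagc
Herpud1, chr8:94386313-94386328, minus strand: gggcTGATGcAAcccg

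ERSE-II was found in Herpud1 alone among the 31 genes and in 0.0365% of all windows, and the TGACGTGG core in none of the 31 and in 0.676% of all windows. The whole windows of Herpud1 and Xbp1 follow, since these genes had the smallest p-values of the XBP1/ATF6 branch. That of Herpud1 (chr8:94386179-94386478, plus strand) holds a CARE match, printed here as its reverse complement, and an ERSE-II match, both in capitals, while that of Xbp1 (chr11:5520391-5520690, plus strand) holds none of the 4 motifs.
Herpud1: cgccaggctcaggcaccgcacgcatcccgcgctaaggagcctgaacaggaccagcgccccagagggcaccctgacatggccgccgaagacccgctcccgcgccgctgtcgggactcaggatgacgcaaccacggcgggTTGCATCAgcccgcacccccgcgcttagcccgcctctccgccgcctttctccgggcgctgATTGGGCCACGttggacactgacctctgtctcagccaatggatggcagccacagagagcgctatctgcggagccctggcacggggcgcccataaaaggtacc
Xbp1: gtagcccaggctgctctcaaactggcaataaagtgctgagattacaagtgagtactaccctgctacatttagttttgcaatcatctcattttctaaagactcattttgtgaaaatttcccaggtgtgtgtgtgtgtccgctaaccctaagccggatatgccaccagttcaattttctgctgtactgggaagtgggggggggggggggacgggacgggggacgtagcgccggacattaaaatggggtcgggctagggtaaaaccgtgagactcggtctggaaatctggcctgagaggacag

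Xbp1, the transcription factor made active by IRE1, rose in AlloTem relative to DC only and to LPS and was the only one of the 35 genes that edgeR called in any comparison without a batch or Y-linked term. It was at 173, 163 and 191 CPM in DC only, 194, 150.1 and 160.2 CPM in LPS, 199, 196 and 194 CPM in SynTem, and 337, 252 and 304 CPM in AlloTem (libraries 1, 2 and 3 in each group). The 3 AlloTem libraries lay above all 9 others, which held for no other member and for 1.85% of all tested genes. Against DC only the log2 difference was 0.76 ± 0.12 (SE, n = 3 per group, adjusted p = 0.0162 by edgeR's quasi-likelihood test with Benjamini-Hochberg adjustment), or 1.70-fold, where 1.76% of all genes were called. Against LPS it was 0.83 ± 0.12 (adjusted p = 0.0185 by edgeR), or 1.77-fold, where 0.451% of all genes were called.

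Against SynTem, the other group cultured with T cells, Xbp1 was 0.60 ± 0.12 higher on the log2 scale (1.52-fold, adjusted p = 0.0958 by edgeR), which missed the threshold of 0.05; 0.167% of all genes passed it. The difference was above 0 in each batch, at 0.76, 0.37 and 0.64 in batches 1, 2 and 3, and with the batch as a replicate block the adjusted p by edgeR was 0.0386, where 0.541% of all genes were called. DESeq2 gave an adjusted p of 0.00126, where 2.21% of all genes were called. The adjusted p by edgeR was higher with only the 6 libraries compared (0.322), without SynTem 2 (0.351), without batch 1 (0.358) and without both DC only 2 and SynTem 2 (0.510). Leaving out 1 library at a time, the difference stayed between 0.50 and 0.70. Within batch 2, Y-linked transcripts were at 175 CPM in SynTem and at 0 in AlloTem.

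Xbp1 was not called in SynTem against DC only (log2 difference 0.16 ± 0.12, adjusted p = 0.793 by edgeR), although the 3 SynTem libraries lay above the 3 DC only libraries and the batch differences were 0.20, 0.26 and 0.03. In LPS against DC only it was not called either (-0.07 ± 0.12, adjusted p = 0.999 by edgeR), and the libraries overlapped.

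Both calls of Xbp1 were lost without certain single libraries, while the size of the difference changed little. Leaving out 1 library at a time, the log2 difference stayed between 0.66 and 0.87 against DC only and between 0.73 and 0.94 against LPS. The adjusted p by edgeR rose to 0.0933 and 0.0950 without DC only 1 or 2 and to 0.0514 without AlloTem 1 against DC only, and to 0.125, 0.107 and 0.0537 without LPS 2, LPS 3 or AlloTem 1 against LPS. Without all of batch 1, an alternative chosen after seeing the data, it was 0.172 and 0.137. Without DC only 2, the near match of DC only 1, and SynTem 2, the 1 library of batch 2 with Y-linked transcripts, it was 0.141 and 0.0784. In a fit that adjusts for Y-linked transcripts, edgeR called 3 members against DC only (Xbp1, Chac1 and Manf, against 4.18% of all genes) and 2 against LPS (Xbp1 and Herpud1, against 1.31%).

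Plasma cells are also known for high Xbp1. The summed level of 10 B and plasma cell genes was 60.5 to 175 CPM in AlloTem, 28.6 to 38.7 in DC only, 43.4 to 112 in LPS and 32.8 to 104 in SynTem. Most of that sum in AlloTem was Prdm1, at 112, 130.2 and 35.5 CPM, and the cells it came from were not tested. The defining plasma cell gene Tnfrsf17 was at 0.503 CPM or less in every library and at 0 counts in 6, and Sdc1 was at 0.571 to 2.61 CPM. Jchain, which joins secreted immunoglobulins, was at 38.4, 15.4 and 5.43 CPM in AlloTem and 4.85 to 56.9 CPM over the 12 libraries. Mzb1 was at 1.81, 0.794 and 0.897 CPM in AlloTem, at most 0.563 CPM in DC only and up to 2.13 CPM over the 12 libraries. The 8 genes of plasmacytoid DCs summed to 464 to 639 CPM in AlloTem and 331 to 379 CPM in SynTem, without overlap, while the DC only sums ran from 378 to 655 CPM and the LPS sums from 375 to 541 CPM. Of these genes, Tcf4, Ly6d, Cox6a2 and Pacsin1 did not overlap between AlloTem and SynTem, while Siglech, Bst2, Ccr9 and Klk1 did.

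The summed level of genes of basophils and mast cells was higher in AlloTem than in the other 9 libraries, as was Xbp1. The 5 genes summed to 184, 35.03 and 41.6 CPM in AlloTem 1, 2 and 3, against at most 25.1 CPM in the other 9 libraries. Their protease gene Cpa3 was at 47.3, 4.57 and 23.4 CPM in AlloTem and at most 2.96 CPM elsewhere, and Fcer1a, a chain of the IgE receptor, was at 0 counts in 5 libraries and at 8.41, 0.645 and 2.27 CPM in AlloTem. Mcpt8, Ms4a2 and Prss34 overlapped between AlloTem and SynTem. They were at 5.38, 1.23 and 9.35 CPM in AlloTem 3 and at 5.75, 1.72 and 14.5 CPM in SynTem 3. The 8 genes of activated T cells summed to 22.7 to 70.5 CPM in AlloTem and 34.6 to 81.2 CPM in SynTem. Of these Il4, Il21 and Cd40lg were higher in AlloTem than in all other libraries, at 4.27 CPM or less. Il2, Il2ra, Ifng and Tnfrsf4 overlapped, and Il17a had no counts. The part of T cells, B and plasma cells, plasmacytoid DCs, basophils and mast cells in the level of Xbp1 was not tested. In such bulk samples fewer cells of a type and less RNA per cell cannot be told apart.

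**Figure D1:**
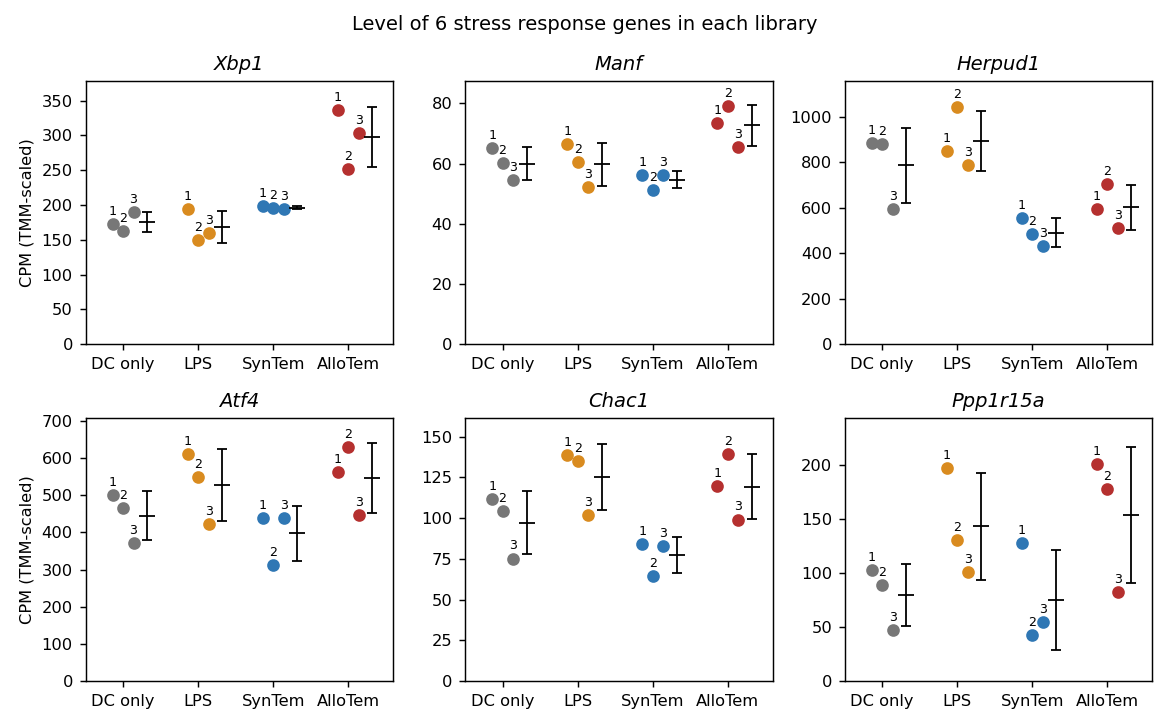
Level of 6 of the genes in each library, in CPM with TMM scaling, by group; numbered points are libraries 1 to 3 and the black marks are the mean and SD. The AlloTem points of Xbp1 (252 to 337 CPM) lie above the other 9 libraries (150.1 to 199 CPM), and those of Herpud1 in SynTem (432 to 557 CPM) lie below all DC only and LPS points.

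Over the 35 genes, AlloTem was higher than SynTem for most members of both branches, with no member called by edgeR (0 of 35, against 0.167% of all genes; DESeq2 called 1, Xbp1, against 2.21%) and 9 of 35 at an unadjusted p under 0.05, against 9.58% of all genes. The median log2 difference was 0.12 over the XBP1/ATF6 branch (14 of 16 genes higher) and 0.21 over the ATF4 branch (16 of 19 higher), against -0.01 over all genes, of which 48.5% were higher. The AlloTem libraries lay above all SynTem libraries for 10 of 35 members, 6 of the XBP1/ATF6 and 4 of the ATF4 branch, against 7.09% of all genes, and below them for 1 (Eif2ak3), against 5.94%. Within batches 1, 2 and 3 the branch medians were 0.08, 0.24 and 0.10 for XBP1/ATF6 and 0.15, 0.48 and 0.09 for ATF4, with the ATF4 value largest in batch 2. Batch 2 sets AlloTem 2, at 0 CPM of Y-linked transcripts, against SynTem 2, at 175 CPM. This holds for each batch 2 value of this comparison given below. Leaving out 1 library at a time, the ATF4 median ran from 0.096 (without AlloTem 2, below the XBP1/ATF6 median of 0.136 in the same fit) to 0.37 (without AlloTem 1), and the XBP1/ATF6 median from 0.108 to 0.164. The difference between the branches was not tested.

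SynTem in turn was lower than DC only for most members, and this comparison shares the SynTem libraries with the one above. The median was -0.13 over the XBP1/ATF6 branch (13 of 16 lower) and -0.27 over the ATF4 branch (16 of 19 lower), against 0.00 over all genes. No member was called by edgeR (0 of 35, against 0.0902% of all genes; DESeq2 called 1, Herpud1, against 1.76% of all genes) and 5 of 35 had an unadjusted p under 0.05, against 8.24%. The SynTem libraries lay below all DC only libraries for 14 of 35 members, 4 of the XBP1/ATF6 and 10 of the ATF4 branch, against 6.83% of all genes, and above them for 1 (Xbp1), against 7.42%. Within batches 1, 2 and 3 the ATF4 median was -0.45, -0.33 and -0.06 and the XBP1/ATF6 median -0.12, -0.15 and -0.08. The 2 groups were not balanced for Y-linked transcripts, at 0, 0 and 209 CPM in DC only and 10.3, 175 and 131 CPM in SynTem. With the Y-linked covariate the XBP1/ATF6 median was smaller in size, as given in the last section.

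AlloTem against DC only showed no such shift, apart from Xbp1. The medians were 0.05 for XBP1/ATF6, 0.01 for ATF4 and 0.00 for all genes, and 2 of 35 members had an unadjusted p under 0.05 (Xbp1 and Manf), against 12.7% of all genes. AlloTem libraries lay above all DC only libraries for 2 members, Xbp1 and Manf (9.35% of all genes), and below them for 3, Atf6, Eif2ak3 and Psat1 (7.82% of all genes). The ATF4 median within batches 1, 2 and 3 was -0.30, 0.24 and 0.08, and the median over all libraries ran from -0.117 without AlloTem 2 to 0.117 without AlloTem 1.

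AlloTem against LPS gave medians of -0.01 for each branch and -0.01 for all genes. An unadjusted p under 0.05 was reached by 3 of 35 members (Xbp1, Herpud1 and Manf), against 6.5% of all genes. Xbp1 was the 1 member with AlloTem above all LPS libraries (5.52% of all genes) and Herpud1 the 1 below (4.54%).

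LPS alone moved no member past the threshold (0 of 35 called by edgeR, against 0.0% of all genes; DESeq2 also called 0, against 0.0694%), and 0 of 35 had an unadjusted p under 0.05, against 3.68%. The medians were 0.03 for XBP1/ATF6 and -0.03 for ATF4. The LPS libraries lay above all DC only libraries for 0 members (5.36% of all genes) and below them for 2, Atf6 and Pdia4 (4.51%).

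**Figure D2:**
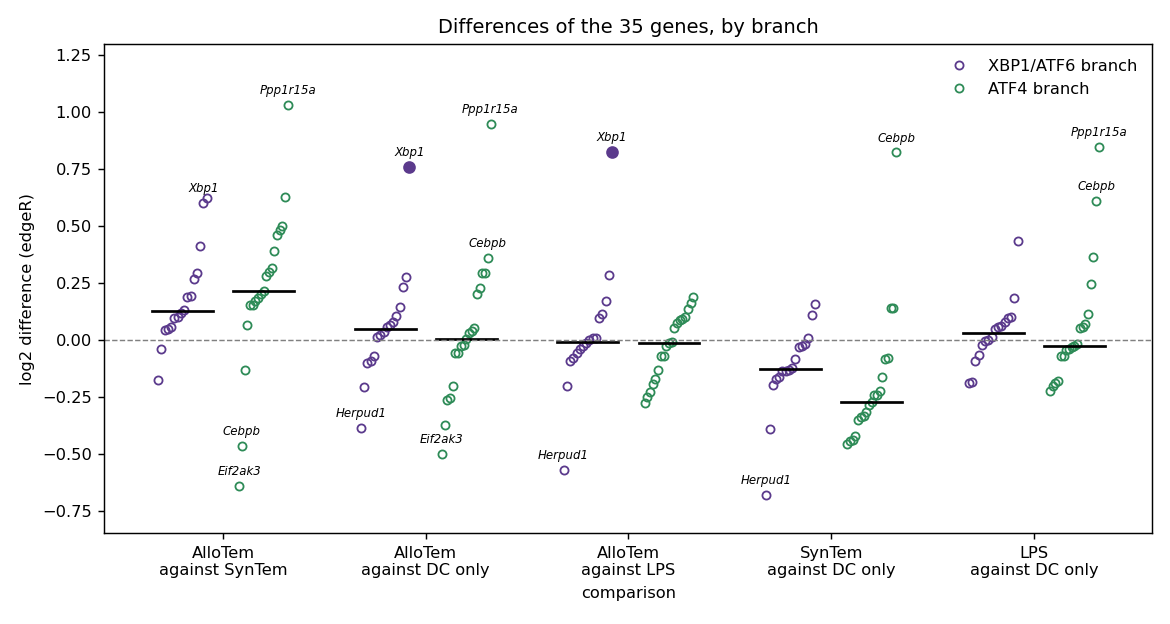
Log2 difference (edgeR) of each of the 35 genes in 5 comparisons, with XBP1/ATF6 genes in purple, ATF4 genes in green, filled points for calls and a black line at the branch median. The filled points are Xbp1 against DC only (0.76) and against LPS (0.83); the branch medians lie above 0 for AlloTem against SynTem and below 0 for SynTem against DC only.

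The other sensors of the XBP1/ATF6 branch were not called. Atf6, the cleaved transcription factor, was at 305, 333 and 312 CPM in DC only, 240.0, 289 and 303 in LPS, 297, 288 and 262 in SynTem, and 269, 285 and 269.6 in AlloTem. Each of the 3 other groups lay below DC only without overlap, with log2 differences of -0.21 ± 0.10 in AlloTem (adjusted p = 0.417 by edgeR), -0.16 ± 0.10 in SynTem (adjusted p = 0.701) and -0.19 ± 0.10 in LPS (adjusted p = 0.999). AlloTem and SynTem differed by -0.04 ± 0.10 for Atf6. Ern1, the kinase and ribonuclease that splices Xbp1, ranged from 70.0 to 121 CPM over the 12 libraries and overlapped between groups in all 5 comparisons.

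The 8 folding and calcium-binding factors were all higher in AlloTem than in SynTem (median log2 difference 0.15, 3 of 8 without overlap, against 7.09% of all genes) and all lower in SynTem than in DC only (median -0.13, 2 of 8 without overlap, against 6.83% of all genes). Manf, a factor released from the ER under stress, was at 65.3, 60.1 and 54.6 CPM in DC only, 66.5, 60.5 and 52.3 in LPS, 56.2, 51.4 and 56.4 in SynTem, and 73.4, 79.2 and 65.6 in AlloTem. AlloTem lay above SynTem and DC only, and overlapped LPS. The log2 differences were 0.41 ± 0.11 against SynTem (adjusted p = 0.200 by edgeR), 0.28 ± 0.11 against DC only (adjusted p = 0.323) and 0.28 ± 0.11 against LPS (adjusted p = 0.618), each higher in 3 of 3 batches.

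Pdia6, a protein disulfide isomerase, was at 173, 153 and 153 CPM in DC only, 179, 171 and 155 in LPS, 144, 135 and 146 in SynTem, and 161, 165 and 159 in AlloTem. SynTem was lowest, below all 9 other libraries, which also held for the calcium-binding chaperone Calr and for Cebpg of the ATF4 branch, 3 of 35 members against 0.978% of all genes. Pdia6 differed by -0.17 ± 0.08 between SynTem and DC only (adjusted p = 0.627 by edgeR) and by 0.19 ± 0.08 between AlloTem and SynTem (adjusted p = 0.489). Calr was at 457 to 482 CPM in SynTem and 504 to 612 CPM in the other groups, with log2 differences of 0.10 ± 0.09 in LPS against DC only (adjusted p = 0.999) and 0.19 ± 0.09 in AlloTem against SynTem (adjusted p = 0.532; 0.12 without AlloTem 2).

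Canx, the membrane-bound partner of Calr, ranged from 346 to 457 CPM and was lower in SynTem than in DC only by a log2 difference of -0.20 ± 0.10 (adjusted p = 0.632 by edgeR). Creld2, a disulfide isomerase with an ERSE in its window, was at 29.9, 31.0 and 31.5 CPM in DC only, 31.9, 32.9 and 30.7 in LPS, 27.1, 30.2 and 27.5 in SynTem and 29.2, 35.8 and 37.0 in AlloTem. Its LPS libraries lay above its SynTem libraries, and the other pairs of groups overlapped. AlloTem was 0.27 ± 0.11 above SynTem on the log2 scale (adjusted p = 0.451 by edgeR). The disulfide isomerases Pdia3 (416 to 506 CPM) and Pdia4 (51.9 to 67.9 CPM) and the chaperone cofactor Sdf2l1 (32.04 to 44.9 CPM) had overlapping AlloTem and SynTem libraries. The 6 genes with an ERSE in the window had log2 differences between 0.10 (Canx) and 0.62 (Derl3) in AlloTem against SynTem, of which none was called.

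The 5 genes of ER-associated degradation bring misfolded proteins to the proteasome. Herpud1, whose product sits in the ER membrane and scaffolds the degradation complex, was at 884, 882 and 596 CPM in DC only, 852, 1042 and 788 in LPS, 557, 485 and 432 in SynTem and 593, 704 and 509 in AlloTem. SynTem lay below all DC only and LPS libraries and AlloTem below all LPS libraries, while AlloTem overlapped both DC only and SynTem. This was opposite in direction to Xbp1 in the comparison of AlloTem with LPS.

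SynTem was below DC only for Herpud1 by a log2 difference of -0.68 ± 0.18 (adjusted p = 0.248 by edgeR and 0.0461 by DESeq2, where 1.76% of all genes were called), lower in 3 of 3 batches. With the Y-linked covariate that difference was -0.47 (adjusted p = 0.103 by edgeR). AlloTem was below LPS by -0.57 ± 0.18 (adjusted p = 0.364 by edgeR, and 0.0451 with the batch as a replicate block, where 0.944% of all genes were called). Against DC only AlloTem differed by -0.39 ± 0.18 (adjusted p = 0.413) and against SynTem by 0.29 ± 0.18 (adjusted p = 0.644; 0.16 without AlloTem 2). Per kilobase of exon, Herpud1 had the highest median level of the 35 genes (279 CPM per kb), ahead of Atf4 (193) and Calr (181).

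The other genes of degradation were not called. Syvn1, the ubiquitin ligase of the complex, was at 73.4, 64.5 and 72.6 CPM in DC only, 78.3, 71.1 and 75.3 in LPS, 68.3, 70.4 and 67.8 in SynTem and 78.7, 72.9 and 74.7 in AlloTem. AlloTem lay above SynTem without overlap (log2 difference 0.13 ± 0.08, adjusted p = 0.624 by edgeR), and LPS overlapped DC only (0.09 ± 0.08, adjusted p = 0.999). Sel1l, its adaptor, ranged from 143 to 177 CPM and Edem1, which hands over glycoproteins, from 250.1 to 323 CPM, both with overlapping groups. Derl3, a channel subunit, had 7 to 40 counts per library (0.520 to 2.14 CPM, the lowest level per kilobase of the 35 genes), so its AlloTem to SynTem difference of 0.62 ± 0.49 (0.34 without SynTem 1) is imprecise.

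In the ATF4 branch, Atf4 itself was at 500.5, 465 and 371 CPM in DC only, 612, 550.1 and 422 in LPS, 440.2, 313 and 439 in SynTem and 563, 631 and 446 in AlloTem. AlloTem lay above SynTem without overlap (the lowest AlloTem at 446 and the highest SynTem at 440.2 CPM) and overlapped DC only and LPS. The log2 difference of AlloTem against SynTem was 0.46 ± 0.19 (adjusted p = 0.481 by edgeR), and within batches 1, 2 and 3 it was 0.35, 1.01 and 0.02. LPS was above DC only by 0.24 ± 0.19 (adjusted p = 0.999).

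Eif2ak3, which encodes PERK, went the other way and was the only member with AlloTem below all SynTem libraries. It was at 56.6, 58.4 and 75.4 CPM in DC only, 52.1, 46.7 and 64.3 in LPS, 57.5, 82.4 and 70.1 in SynTem and 53.0, 26.9 and 54.6 in AlloTem. The low value of AlloTem 2 stood out, and the log2 difference against SynTem was -0.64 ± 0.25 (adjusted p = 0.451 by edgeR) and -0.12, -1.60 and -0.36 within batches 1, 2 and 3. Against DC only it was -0.50 ± 0.25 (adjusted p = 0.454). Without AlloTem 2 the differences were -0.39 against SynTem and -0.24 against DC only.

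Ddit3, which encodes the pro-apoptotic factor CHOP, was at 42.8, 41.2 and 47.9 CPM in DC only, 45.4, 49.3 and 35.5 in LPS, 39.6, 36.5 and 35.3 in SynTem and 42.9, 48.9 and 37.5 in AlloTem. SynTem lay below DC only without overlap and AlloTem overlapped every other group, with 0.21 ± 0.14 against SynTem (adjusted p = 0.657 by edgeR; 0.11 without AlloTem 2). Exons of Ddit3 overlap Mars on the opposite strand over 3.97% of their length, and the strand setting of the counting is not given in the sources used here.

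The C/EBP factors are partners of ATF4 at its elements. Cebpg was at 156, 149.7 and 137 CPM in DC only, 148, 142 and 143 in LPS, 129, 119 and 129 in SynTem and 153, 136 and 135 in AlloTem. SynTem lay below DC only by -0.23 ± 0.08 on the log2 scale (adjusted p = 0.443 by edgeR), in 3 of 3 batches. Cebpb differed more between libraries of 1 group than between groups, at 559.6, 63.7 and 239 CPM in SynTem, and its difference of 0.82 ± 0.83 in SynTem against DC only was no larger than its SE (adjusted p = 0.852 by edgeR). In DC only it was at 229.9, 188 and 69.4 CPM, in LPS at 474, 141 and 129, and in AlloTem at 398, 115 and 110.4. Library 1 was highest in every group, and 20.7% of Cebpb exon bases overlap Tmem189 on the other strand.

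The 4 feedback and stress regulators were the ATF4 role group with the largest median in AlloTem against SynTem (0.57, all 4 higher, 2 without overlap, against 7.09% of all genes). Chac1, which degrades glutathione, was at 112, 104 and 75.2 CPM in DC only, 139, 135 and 102 in LPS, 83.9, 64.5 and 83.1 in SynTem and 119.6, 139 and 99.1 in AlloTem. AlloTem and LPS both lay above SynTem without overlap, and both overlapped DC only. The differences were 0.63 ± 0.19 in AlloTem against SynTem (adjusted p = 0.258 by edgeR) and 0.37 ± 0.19 in LPS against DC only (adjusted p = 0.999). With the Y-linked covariate Chac1 differed by 0.46 in AlloTem against SynTem (adjusted p = 0.0702 by edgeR).

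Sesn2, an inhibitor of the growth kinase complex mTORC1, was at 230.5, 219 and 175 CPM in DC only, 208, 255 and 192 in LPS, 169, 164 and 183 in SynTem and 213, 308 and 209.9 in AlloTem. AlloTem lay above SynTem by 0.50 ± 0.17 without overlap (adjusted p = 0.339 by edgeR) and overlapped the other groups. Trib3, a pseudokinase that binds ATF4, was at 73.4 to 99.2 CPM in SynTem, 103 to 127 in DC only, 104 to 140.2 in LPS and 85.8 to 162 in AlloTem, a difference of 0.48 ± 0.21 in AlloTem against SynTem (adjusted p = 0.499). Its SynTem libraries lay below all DC only libraries. Without AlloTem 2, the highest library of Sesn2, the difference of AlloTem against SynTem was 0.29 for Sesn2 and 0.19 for Trib3.

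Ppp1r15a (GADD34), the subunit that directs a phosphatase to eIF2, had the largest difference of the branch but also wide spread. It was at 103, 89.0 and 47.4 CPM in DC only, 197, 131 and 101 in LPS, 128, 42.2 and 54.9 in SynTem and 201, 177 and 82.2 in AlloTem. In each batch AlloTem and LPS exceeded DC only, though the groups overlapped. The differences were 0.95 ± 0.48 in AlloTem (adjusted p = 0.464 by edgeR) and 0.85 ± 0.48 in LPS (adjusted p = 0.999) against DC only, and 1.03 ± 0.48 in AlloTem against SynTem (adjusted p = 0.534; 1.67 without SynTem 1).

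**Figure D3:**
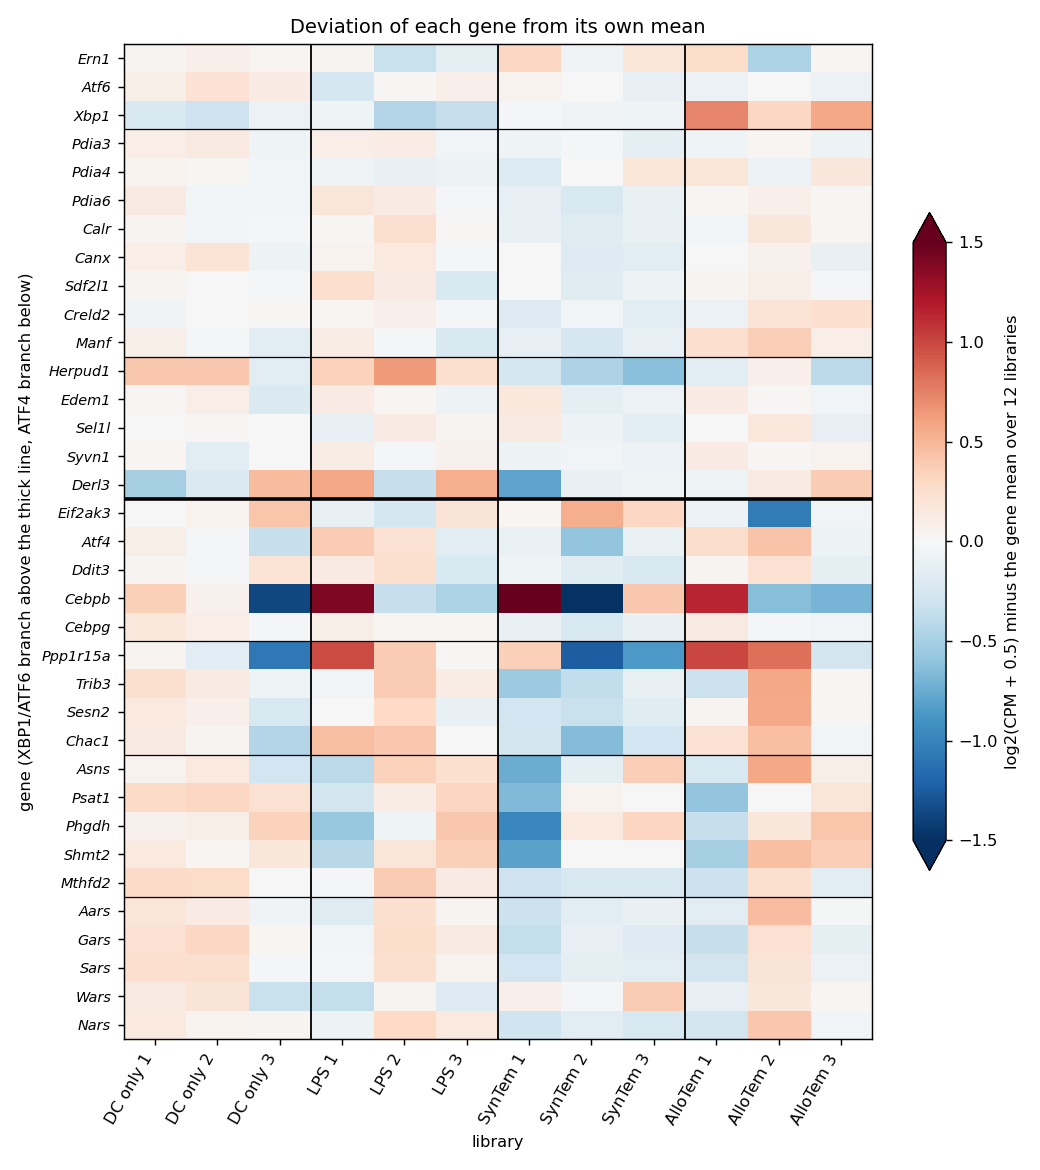
Deviation of each of the 35 genes (rows) in each of the 12 libraries (columns) from the gene's own mean of log2(CPM + 0.5), with a thick line between the branches. Xbp1 stands out in red in the 3 AlloTem libraries, and the rows of amino acid and one-carbon synthesis are blue in LPS 1, SynTem 1 and AlloTem 1.

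The 5 enzymes of amino acid and one-carbon synthesis were all lower in SynTem than in DC only (median -0.34, 3 without overlap, against 6.83% of all genes) and all higher in AlloTem than in SynTem (median 0.20, 0 without overlap). Mthfd2, a mitochondrial folate enzyme, was at 471, 467 and 389.9 CPM in DC only, 379, 504 and 422 in LPS, 312, 327 and 329 in SynTem and 310.2, 457 and 346 in AlloTem. SynTem lay below all DC only and LPS libraries, and AlloTem overlapped every group. The differences were -0.46 ± 0.15 in SynTem against DC only (adjusted p = 0.374 by edgeR) and -0.23 ± 0.15 in AlloTem against LPS (adjusted p = 1.000).

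Asns, asparagine synthetase, was at 39.0, 41.4 and 30.6 CPM in DC only, 28.1, 47.5 and 44.2 in LPS, 22.1, 34.1 and 48.5 in SynTem and 31.6, 56.1 and 39.7 in AlloTem. Its groups all overlapped, with 0.28 ± 0.30 in AlloTem against SynTem (adjusted p = 0.819 by edgeR) and 0.50, 0.71 and -0.28 within batches 1, 2 and 3. It ran from 0.02 without AlloTem 2 to 0.60 without SynTem 3. The serine synthesis enzymes Phgdh (61.2 to 162 CPM) and Psat1 (119.5 to 237 CPM) and the folate enzyme Shmt2 (118 to 283 CPM) had their lowest value in SynTem 1.

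Within this group, 3 of the 4 libraries of batch 1 lay lowest. The median deviation of the 5 enzymes from their own means was -0.41 in LPS 1, -0.74 in SynTem 1 and -0.34 in AlloTem 1, and between 0.00 and 0.33 in the other 9 libraries, DC only 1 included. The median differences against DC only were -0.56 (LPS), -0.95 (SynTem) and -0.60 (AlloTem) within batch 1, against 0.11, -0.26 and 0.08 within batch 2 and 0.12, -0.16 and 0.08 within batch 3.

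The same 3 libraries had the lowest summed level of 7 proliferation genes (839 to 1044 CPM, against 1168 to 1829 CPM in the other 9). They also had the highest sums of 6 NK cell genes (407 to 588 CPM against 8.38 to 169 CPM) and of 8 macrophage genes (91.9 to 147 CPM against 36.5 to 56.8 CPM). Most of the macrophage sum was Adgre1, at 61.45, 117 and 100.2 CPM in LPS 1, SynTem 1 and AlloTem 1, and Spic was also highest there. Vcam1, C1qa, C1qb, C1qc and Mertk were highest in AlloTem 2, and Cd163 in DC only 1. The part of NK cells, macrophages and cell division in the levels was not tested.

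**Figure D4:**
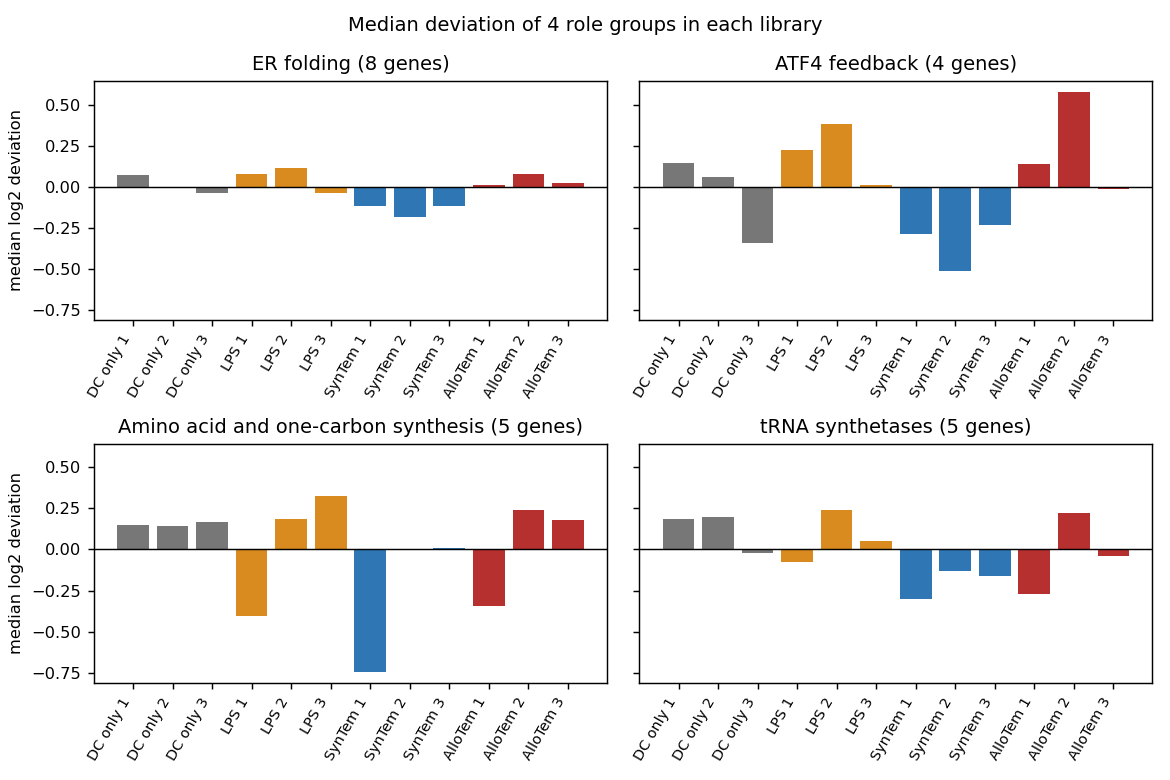
Median deviation (log2, from each gene's mean over the 12 libraries) of 4 role groups in each library, coloured by group. The synthesis enzymes lie lowest in SynTem 1 (-0.74), LPS 1 (-0.41) and AlloTem 1 (-0.34), and the folding factors lie below 0 in all 3 SynTem libraries.

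Of the 5 aminoacyl-tRNA synthetases, which charge tRNAs with their amino acids, 4 were lower in SynTem than in DC only without overlap (median of the 5 -0.32), against 6.83% of all genes. Gars, for glycine, was at 358, 379 and 311 CPM in DC only, 296.5, 367 and 333 in LPS, 238, 279 and 265 in SynTem and 239, 355 and 277 in AlloTem. SynTem lay below all DC only and LPS libraries, and AlloTem overlapped all groups. The differences were -0.42 ± 0.15 in SynTem against DC only (adjusted p = 0.416 by edgeR), -0.27 ± 0.15 in AlloTem against DC only (adjusted p = 0.517) and -0.19 ± 0.15 in AlloTem against LPS (adjusted p = 1.000).

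Sars, for serine, ranged from 141 to 157 CPM in SynTem and 170.0 to 205 in DC only, a difference of -0.35 ± 0.13 (adjusted p = 0.452 by edgeR). Aars, for alanine, ranged from 340.5 to 393 CPM in SynTem and 408 to 483 in DC only, and Nars, for asparagine, from 360.2 to 395 and 458 to 492. Wars, for tryptophan, did not follow the other 4: it was at 61.1 to 88.4 CPM in DC only and 76.2 to 100.3 in SynTem, and AlloTem exceeded LPS by 0.19 ± 0.16 (adjusted p = 1.000).

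Other genes of these pathways, in 7 lists of 5 to 22 genes, gave 0 calls by edgeR in each of the 5 comparisons, in which 0.0% to 1.76% of all genes were called. The 22 other amino acid response genes were higher in AlloTem than in SynTem for 18 (median 0.28, against 48.5% of all genes higher), with 5 at an unadjusted p under 0.05 (9.58% of all genes), and lower in SynTem than in DC only for 16 (median -0.24). Of these Atf5, a factor related to ATF4, was at 72.4, 66.4 and 55.8 CPM in DC only, 56.9, 74.1 and 67.0 in LPS, 29.1, 41.3 and 47.8 in SynTem and 54.4, 90.6 and 70.2 in AlloTem. AlloTem lay above SynTem without overlap (0.86 ± 0.21, adjusted p = 0.160 by edgeR). The 7 other synthetases reported as ATF4 targets were all lower in SynTem than in DC only (median -0.40, 6 without overlap, against 6.83% of all genes; Yars -0.40 ± 0.17, adjusted p = 0.562), and the 8 remaining cytoplasmic synthetases were lower for 6 (median -0.075; Farsb -0.21 ± 0.11, adjusted p = 0.668).

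Stc2, a secreted glycoprotein, was at 0.314 CPM or less in DC only and LPS, 0.446, 1.96 and 1.42 CPM in SynTem and 1.61, 0.645 and 0.850 in AlloTem. It lay above DC only without overlap in both groups that had T cells, by 3.70 ± 0.92 in SynTem (adjusted p = 0.214 by edgeR) and 3.39 ± 0.91 in AlloTem (adjusted p = 0.114), with T cell genes also higher in those libraries. The part of T cells in this level was not tested.

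The other 4 lists had medians near 0 in AlloTem against SynTem. The median was 0.05 for 14 other ER chaperones and folding enzymes (8 higher; Hyou1 0.27 ± 0.10, adjusted p = 0.376 by edgeR) and -0.003 for 16 other genes of ER degradation and translocation (7 higher; Selenos 0.17 ± 0.09, adjusted p = 0.592). It was 0.025 for 5 kinases and regulators of eIF2, which act upstream of ATF4 (Eif2s1 0.23 ± 0.17, adjusted p = 0.692) and -0.01 for 5 mRNAs reported to be cut by IRE1 (Bloc1s1 0.22 ± 0.21, adjusted p = 0.787). In AlloTem against DC only the smallest p-values of these lists were those of Ero1lb (-0.34 ± 0.14, adjusted p = 0.352) and Eif2ak1 (-0.28 ± 0.09, adjusted p = 0.187).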

How the data were processed

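RNA was treated with DNase and made into TruSeq libraries for single-end NextSeq reads, per the labels' protocols. The authors deposited raw gene counts of the 12 libraries, not normalized, and a table of batch numbers. They used build mm10, per the submitters' processing notes (aligner, counter, strand setting and annotation: not given in the sources used here). GENCODE M21 (GRCm38) supplied gene symbols and coordinates. Ddit3 has a second identifier at 0 counts, which was not used.

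After filterByExpr (minimum count 10, total 15), all 12 libraries were fitted in edgeR 4.0.16 under R 4.3.3 (TMM, robust quasi-likelihood, a mean for each group). P-values were adjusted by Benjamini-Hochberg over 14413 genes and called under 0.05. SE is the log2 difference over the square root of F. Ratios within a batch used CPM + 0.5. The fit was run on simulated data with changes larger than those of most members. That run therefore does not show what the fit recovers at their size. Alternatives were RLE and upper quartile scaling, DESeq2 1.42.0, limma voom 3.58.1, other filters, fewer libraries, a Y-linked covariate and the replicate block.

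Batch numbers were taken as pairing for ratios within a batch and for the replicate block, because the deposited table names them batches. The main fit had no batch term. Same-number libraries deviated together at a median correlation of 0.25 (18 pairs, 12 above 0.1), others at -0.20. Deviations from a group mean cancel within the group, so a positive value for same-number pairs pulls that of the others below it. The members and lists were chosen with earlier results of these data known. The rule named Xbp1, Atf6, Atf4, Ddit3, Herpud1 and Asns, every called member, the 3 smallest p-values per comparison and branch, and in each other list the called genes or the smallest p, given here for the comparisons described. Sars, Trib3 and Cebpb differences were added after their values were seen. The differences of Ppp1r15a, Pdia6, Calr, Canx, Syvn1 and Derl3 in AlloTem against SynTem were also given outside this rule.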

Additional observations from a re-analysis of the deposited data

How the results depend on the processing

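With the replicate number as a block, Xbp1 was called in AlloTem against SynTem (adjusted p = 0.0386 by edgeR, 1 member called, 0.541% of all genes) and 2 members, Xbp1 and Herpud1, in AlloTem against LPS (0.944% of all genes); no other member call changed under the block. DESeq2 called 1 member in AlloTem against SynTem (Xbp1; 2.21% of all genes) and 1 in SynTem against DC only (Herpud1; 1.76%). With the Y-linked covariate 3 members were called in AlloTem against DC only (Xbp1, Chac1 and Manf; 4.18% of all genes) and 2 in AlloTem against LPS (Xbp1 and Herpud1; 1.31%). In these last 2 comparisons 0 members were called when only the 6 libraries compared were fitted, without DC only 2 and SynTem 2, and without batch 1 (chosen after seeing the data); fewer libraries entered these fits. Leaving out 1 library at a time gave 0 to 1 calls in each of them and 0 in the other 3 comparisons.

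Of the branch medians under all alternatives, 232 stayed within the spread of the batch medians and 8 did not. The XBP1/ATF6 median in SynTem against DC only was -0.091 with a filter at a mean of 5 CPM, -0.063 with the Y-linked covariate and -0.129 to -0.090 with 1 library left out. In LPS against DC only it was -0.006 without batch 1 and -0.007 to 0.076 with 1 library left out, and in AlloTem against LPS -0.047 to 0.016; the cause was not tested. Over 48 pairs of gene and comparison, 1082 values kept direction and side of the threshold, 6 were newly called, 12 lost the call (all Xbp1) and 3 changed sign. With 1 library left out, Xbp1 in LPS against DC only ran from -0.180 to 0.009 (without LPS 2), Atf6 in AlloTem against SynTem from -0.087 to 0.000 (without SynTem 1) and Cebpb in SynTem against DC only from -0.101 (without SynTem 1) to 1.296. With 3 libraries per group, differences of the size seen for most members could not be separated from the spread.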
